A study of Drosophila melanogaster with 16 samples.

Results

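Mitochondrial ribosomal protein genes were described in the larval trachea of Drosophila melanogaster after cigarette smoke. They were taken as all genes whose symbol begins with mRpL or mRpS and a number, which gave 72 of the 17559 genes in the tables. Of these, 47 carry symbols of the large subunit (mRpL) and 25 of the small subunit (mRpS), and genes are grouped below by symbol. RNA had been sequenced from trachea isolated from larvae of Canton S, a wild-type laboratory strain, with 4 libraries per group: females after smoke, females in air, males after smoke and males in air. The smoke was mainstream smoke drawn from 3R4F research cigarettes for 60 min, at 4 puffs per min, and no group carried a transgene or mutation according to the labels. The labels give neither the age of the larvae nor the number of animals per library. Whether the 4 libraries of a group stem from different animals or cultures is not stated, so the p-values reflect the spread between these libraries, which may be technical.

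The mitochondrial ribosome translates the few messenger RNAs that are transcribed from the mitochondrial genome, all of which in animals encode membrane subunits of the respiratory chain and the ATP synthase. Its ribosomal RNAs also come from the mitochondrial genome, while its proteins are encoded in the nucleus, made in the cytosol and imported. Some of these proteins have relatives in bacterial ribosomes, and the others are found in mitochondria alone. In flies, a mutation of the mitochondrial ribosomal protein gene tko delays development and makes the animals sensitive to mechanical shock.

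Between 15036560 and 23434521 reads per library were assigned to genes, and 18399 to 35913 of them fell on the 72 genes together. The RNA roX1, which coats the male X chromosome, stood between 48.1 and 109 reads per 1000000 reads (CPM) in the female libraries and between 654 and 1266 CPM in the male libraries. Genes that mark the trachea summed to 14023 ± 1246 CPM in female smoke and 11989 ± 3107 CPM in female air, and to 16330 ± 2990 CPM in male smoke and 13516 ± 2621 CPM in male air (SD, n = 4 each), with no defining marker at 0. Replicates 1 and 2 carry column names of another style than replicates 3 and 4. They had 19367755 to 23434521 reads assigned to genes, against 15036560 to 19431772 in replicates 3 and 4.

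Of the 72 genes, 71 had a normalised read count of 10 or more in 4 or more of each sex's 8 libraries and were tested in both sexes. The exception was mRpL53, which had 0 reads in all 16 libraries. Its 829 exonic bases all lie on the same strand inside exons of CG33155 in the reference annotation, and CG33155 itself had 2 to 11 reads per library. A count of 0 for mRpL53 therefore cannot be read as absence of its RNA. The other 71 genes had at least 57 reads in each library.

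Many of these genes had less mRNA in smoke than in air in females. In female smoke 17 genes were lower than in female air and 1, mRpL28, was higher (limma on log2 normalised counts, Benjamini-Hochberg adjusted p under 0.05 over 8877 genes). Over all genes tested in females, 7.09% were called lower and 10.9% were called higher. With the replicate number as a term (the replicate block), 33 genes were lower, against 12.7% of all genes, and 1 higher, against 15.5%. The log2 change was below 0 for 66 of the 71 genes, against 52.2% of all genes tested, and its median was -0.28, against -0.018 over all genes. The 4 smoke libraries all stood below the 4 air libraries for 23 genes, against 10.8% of all genes tested, and all above them for 1 gene, against 13.7%.

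In males 3 genes, mRpL9, mRpL44 and mRpS35, were lower in smoke and 0 were higher by limma, with 14 of 71 genes (19.7%) at an unadjusted p under 0.05 in either direction, against 31.5% of all genes tested in males. By edgeR and DESeq2, too, 0 genes were higher in male smoke. Over the 8705 genes tested in males, 4.64% were called lower and 8.89% higher. With the replicate block 8 of the set were lower, against 13.2% of all genes, and 1 higher, against 19.2%. The log2 change was below 0 for 55 of 71 genes, against 50.9% of all genes tested, with a median of -0.13 against -0.0061. The smoke libraries all stood below the air libraries for 12 genes, against 9.11% of all genes tested, and all above for 2 genes, mRpL28 and mRpS11, against 13.4%.

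**Figure D1:**
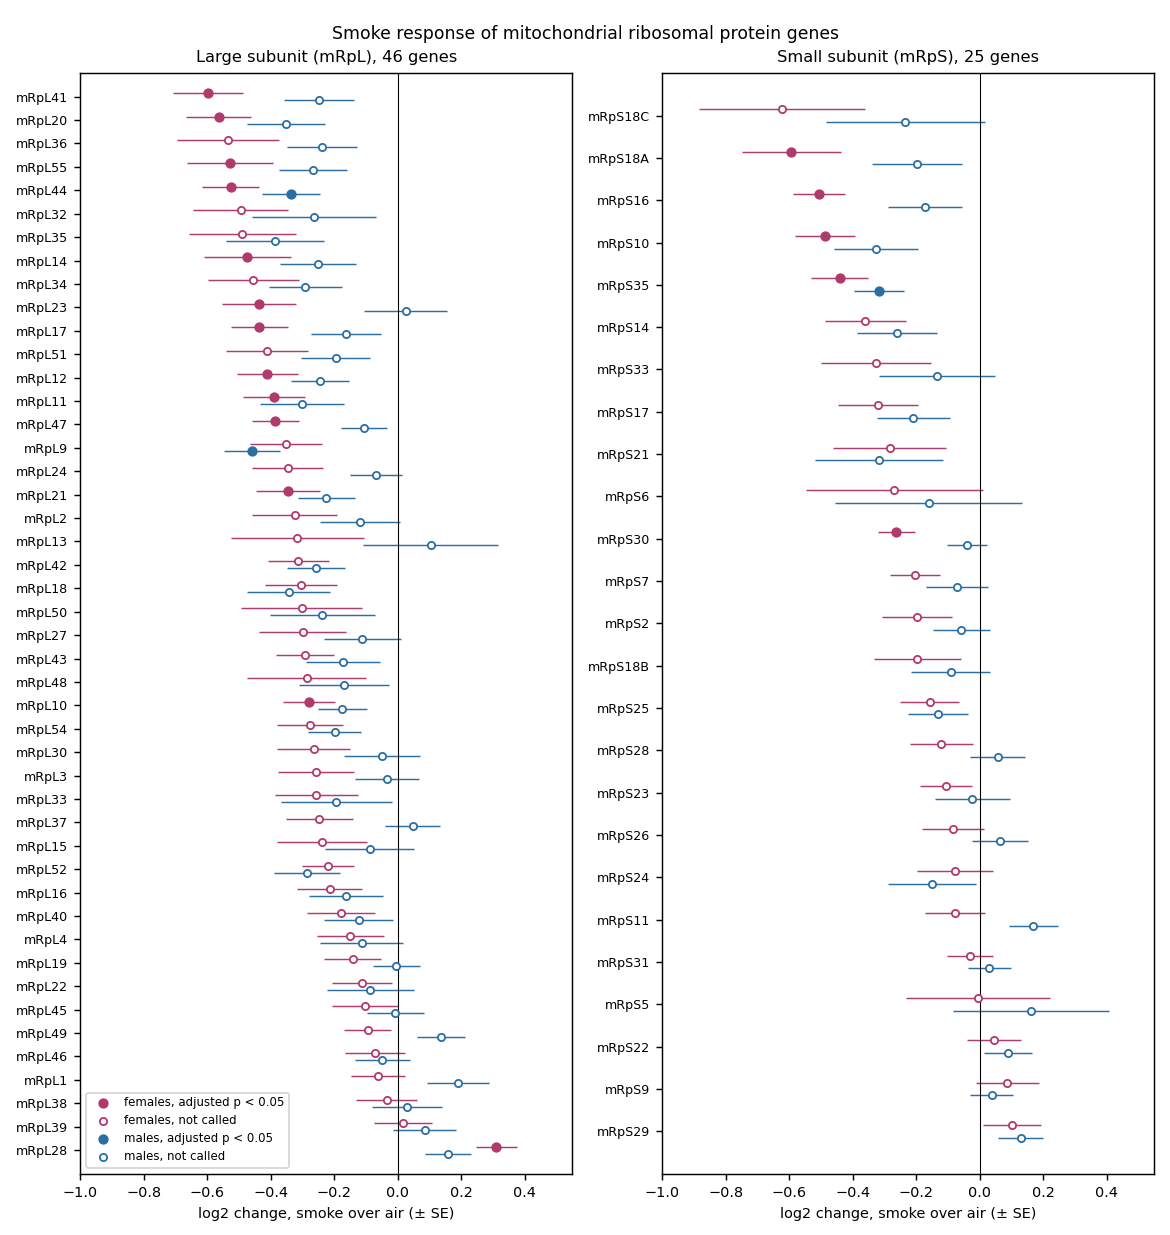
Log2 change of each of the 71 tested genes, smoke over air, with its standard error, for the large subunit on the left and the small subunit on the right, ordered by the change in females. Filled points passed an adjusted p of 0.05. In females 17 filled points lie below 0 and 1 above it, and in males 3 lie below 0.

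Within replicates 1 and 2 the log2 change was below 0 for 64 of 71 genes in females and 56 in males, with medians of -0.25 and -0.15. The medians over all genes tested were -0.017 and -0.012. Within replicates 3 and 4 the log2 change was below 0 for 67 genes in females and 53 in males, with medians of -0.30 and -0.13. Over all genes tested, these medians were -0.0065 and 0.014. With 2 libraries against 2, limma called 0 of the 71 genes in females and in males, and it called 12 and 146 of all genes within replicates 1 and 2, and 799 and 11 within replicates 3 and 4. In females 14 of the 71 genes (19.7%) had an unadjusted p under 0.05 within replicates 1 and 2, against 19.6% of all genes, and 30 (42.3%) within replicates 3 and 4, against 33.3%. In males these were 5 genes (7.04%), against 22.3%, and 4 genes (5.63%), against 20.7%.

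The female count of 17 was 9 without smoke replicate 1, 9 without smoke replicate 3, 11 without smoke replicate 4, 11 without air replicate 3 and 11 without air replicate 4, and between 13 and 15 without each of the other 3 libraries, while 3.89% to 9.64% of all genes were called lower in these 8 fits. The male count of 3 became 0 without male smoke replicate 1, 2 without male smoke replicate 2 and 1 without each of the other 6 libraries, while 1.62% of all genes were called lower without male smoke replicate 1, 5.28% without male smoke replicate 2 and 1.92% to 2.89% without the others. Of the 17 genes lower in females, 8 passed in each of the 8 fits that left out 1 library and under each of 13 other settings over the 8 libraries: mRpL17, mRpL20, mRpL41, mRpL44, mRpL47, mRpS10, mRpS16 and mRpS35.

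Among the 17 genes, the fall ranged from mRpS30, which fell by 16.7% in the mean of the female smoke libraries against female air, to mRpL41, which fell by 34.2%. Their mean levels lay between 124 counts (mRpL55) and 909 counts (mRpS30) in female smoke, and between 177 and 1091 counts for the same genes in female air. In bulk tissue such as this, fewer cells of a type and less RNA per cell cannot be told apart.

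The large subunit genes are described first, beginning with the stalk. In bacteria the stalk recruits translation factors to the ribosome, and it is built from several copies of the L12 protein held by the L10 protein, on a base that contains L11. mRpL12 had 517, 522, 578 and 610.3 normalised counts in female smoke, against 656, 714, 799 and 795 in female air. Every smoke library lay below every air library. The log2 change was -0.41 ± 0.10 (SE), with an adjusted p of 0.0213 by limma. mRpL12 was also the gene with the highest level per kilobase in air, at 1004 counts per kb in females and 948 in males. In males its libraries did not overlap either, with 521, 599, 618 and 623 counts in smoke and 634, 668, 763 and 732 in air, and the log2 change of -0.24 did not pass (adjusted p = 0.111). It was called in males with libraries rescaled to the same total, with the replicate block and with the naming style of the columns as a term. By edgeR and DESeq2 it was not called in males. The female call was lost when the trend of all genes with exonic length was removed from each library (adjusted p = 0.0783) and in 4 of the 8 fits that left out a library.

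The partners of mRpL12 are mRpL10 and mRpL11. mRpL10, the anchor of the stalk, had 272, 311, 284 and 269 counts in female smoke, against 363, 345, 344 and 327 in female air. mRpL11, in its base, had 162, 173, 142 and 155 counts in female smoke, against 197, 215, 202 and 215 in female air. Neither gene had overlapping groups in females. The log2 changes were -0.28 ± 0.08 for mRpL10 (adjusted p = 0.0489) and -0.39 ± 0.10 for mRpL11 (adjusted p = 0.0278). Both calls were lost with the length trend removed (adjusted p = 0.266 and 0.144) and with no filter on low counts (0.0926 and 0.0638), and the call of mRpL10 also in each fit that left out a library. In males mRpL10 also had all smoke libraries below all air libraries, with a log2 change of -0.17 and an adjusted p of 0.163, while the male groups of mRpL11 overlapped. mRpL1, which in bacteria forms the stalk on the opposite side and escorts spent transfer RNA out, was not called, with log2 changes of -0.062 in females and 0.19 in males.

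Several proteins of the core of the large subunit have bacterial relatives. In bacteria L20 is needed early in assembly of the large subunit. mRpL20 had 249, 287, 226 and 229 counts in female smoke, against 353, 373, 396 and 342 in female air. The groups lay well apart, with the highest smoke library below the lowest air library, and the log2 change was -0.56 ± 0.10 (adjusted p = 0.00889). In males it had 274, 309, 271 and 227 counts in smoke, against 356, 373, 357 and 292 in air, where the groups overlapped through smoke replicate 2 and air replicate 4, and the change of -0.35 did not pass (adjusted p = 0.0923). mRpL20 was called lower in males only with the replicate block and with the naming style as a term.

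mRpL17 and mRpL23 have bacterial relatives that lie near the exit of the tunnel through which the new protein leaves. mRpL17 had 218, 233, 235 and 228 counts in female smoke, against 298, 298, 352 and 294 in female air. The smoke libraries were tightly placed below all air libraries, and air replicate 3 was the highest. The log2 change was -0.44 ± 0.09 (adjusted p = 0.0136). Of the exonic bases of mRpL17, 23.6% also belong to CG34263 on the opposite strand, and no source here states whether counting used strand, so reads of the pair cannot be told apart there. It was the only gene among the called ones in either sex to share 20% or more of its exonic bases with another gene.

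mRpL23 had 188, 197, 150.2 and 163 counts in female smoke, against 248, 236, 247 and 211 in female air. All smoke libraries were below all air libraries, and the log2 change was -0.44 ± 0.12 (adjusted p = 0.0354). In males mRpL23 had 186, 214, 212 and 176 counts in smoke, against 221, 198, 201 and 157 in air, groups that overlapped almost fully, with a log2 change of 0.025. The difference between the sexes in its response, -0.46, was among the widest of the 71 genes, and it did not pass the test over all genes (adjusted p = 0.232).

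mRpL14, whose bacterial relative sits at the face that meets the small subunit, and mRpL21 were also lower in female smoke. mRpL14 had 299, 396, 285 and 288 counts in female smoke, against 491, 466, 425 and 373 in female air. Here the groups overlapped, because smoke replicate 2 was above air replicate 4, and mRpL14 was the only one of the 17 genes whose groups did. Its log2 change was -0.47 ± 0.14 (adjusted p = 0.0462), and edgeR did not call it (adjusted p = 0.0503). mRpL21 had 237, 277, 277 and 227 counts in female smoke, against 314, 309.7, 353 and 316 in female air, with groups apart and a log2 change of -0.35 ± 0.10 (adjusted p = 0.0478).

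mRpL9 was the male gene with the deepest fall. In bacteria L9 reaches out from the base of the stalk formed by L1. In males it had 318, 380.0, 325 and 330.2 counts in smoke, against 437, 445, 491 and 488 in air. The groups were well separated, with a log2 change of -0.46 ± 0.09 (adjusted p = 0.0146), and without male smoke replicate 1 the adjusted p was 0.0510. In females it had 308, 423, 387 and 361 counts in smoke, against 418, 486, 483 and 491 in air. Smoke replicate 2 lay just above air replicate 1 there, and the change of -0.35 ± 0.11 did not pass (adjusted p = 0.0659). mRpL9 was called lower in females by DESeq2, at the same upper quartile, at the same total and with the replicate block. It was not called there by edgeR, with the naming style as a term or with the length trend removed.

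Among the 18 tested genes of large subunit proteins numbered above 36, which mostly have no bacterial relative, 4 were lower in female smoke. These 4 were mRpL41, mRpL44, mRpL47 and mRpL55, and 7.09% of all genes tested were called lower. mRpL41 had 142, 137, 137 and 121 counts in female smoke, against 183, 219, 223 and 192 in female air. This was the deepest fall among called genes, at -0.60 ± 0.11 on the log2 scale (adjusted p = 0.00881), and the groups were well apart. In males it had 137, 178, 149 and 166 counts in smoke, against 191, 197, 179 and 179 in air. Those groups lay side by side without overlap, and the change of -0.25 did not pass (adjusted p = 0.168).

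mRpL44 carries a fold related to ribonuclease III, and mutations of its human relative cause cardiomyopathy. It was 1 of 2 genes called lower in both sexes, the other being mRpS35. In females mRpL44 had 264, 292, 256 and 252 counts in smoke, against 364, 428, 377 and 367 in air. In males it had 259, 309, 255 and 265 counts in smoke, against 343, 368, 335 and 328 in air. No smoke library reached the lowest air library in either sex. The log2 changes were -0.53 ± 0.09 in females (adjusted p = 0.00702) and -0.34 ± 0.09 in males (adjusted p = 0.0458). The male call was lost in 7 of the 8 fits that left out a library, all but the one without male smoke replicate 2, with adjusted p between 0.0803 and 0.124. It was also lost with no filter (0.0724), at the same upper quartile (0.0594), at the same total (0.0596), where mRpL12 was called in its place, and with the length trend removed (0.0956).

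mRpL47 is the mitochondrial counterpart of a bacterial protein at the tunnel exit. It had 380.5, 443, 405 and 396 counts in female smoke, against 514, 544, 526 and 537 in female air, with groups far apart. The log2 change was -0.39 ± 0.07 (adjusted p = 0.0109). mRpL55, a protein known from animals, had 99.3, 116, 135 and 145 counts in female smoke, against 178, 172, 188 and 171 in female air. Its groups did not overlap, and the log2 change was -0.53 ± 0.14 (adjusted p = 0.0308). In males neither gene passed, with log2 changes of -0.11 for mRpL47 and -0.27 for mRpL55.

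mRpL28 was the 1 gene higher in female smoke, with 1159.9, 1172, 1219 and 1235 counts in female smoke, against 925, 934, 1029 and 972 in female air. All smoke libraries stood above all air libraries, and the log2 change was 0.31 ± 0.06 (adjusted p = 0.0138). In males it had 1129, 1071, 1184 and 1084 counts in smoke, against 1013, 911, 1054 and 1029 in air, again with no overlap, and a change of 0.16 ± 0.07 that did not pass (adjusted p = 0.170). In smoke mRpL28 had the highest level per kilobase of all 71 genes, at 1023 counts per kb in females and 955 in males, above mRpL12 at 754 and 800. When libraries were rescaled to the same total, the female call was lost (adjusted p = 0.0586).

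**Figure D2:**
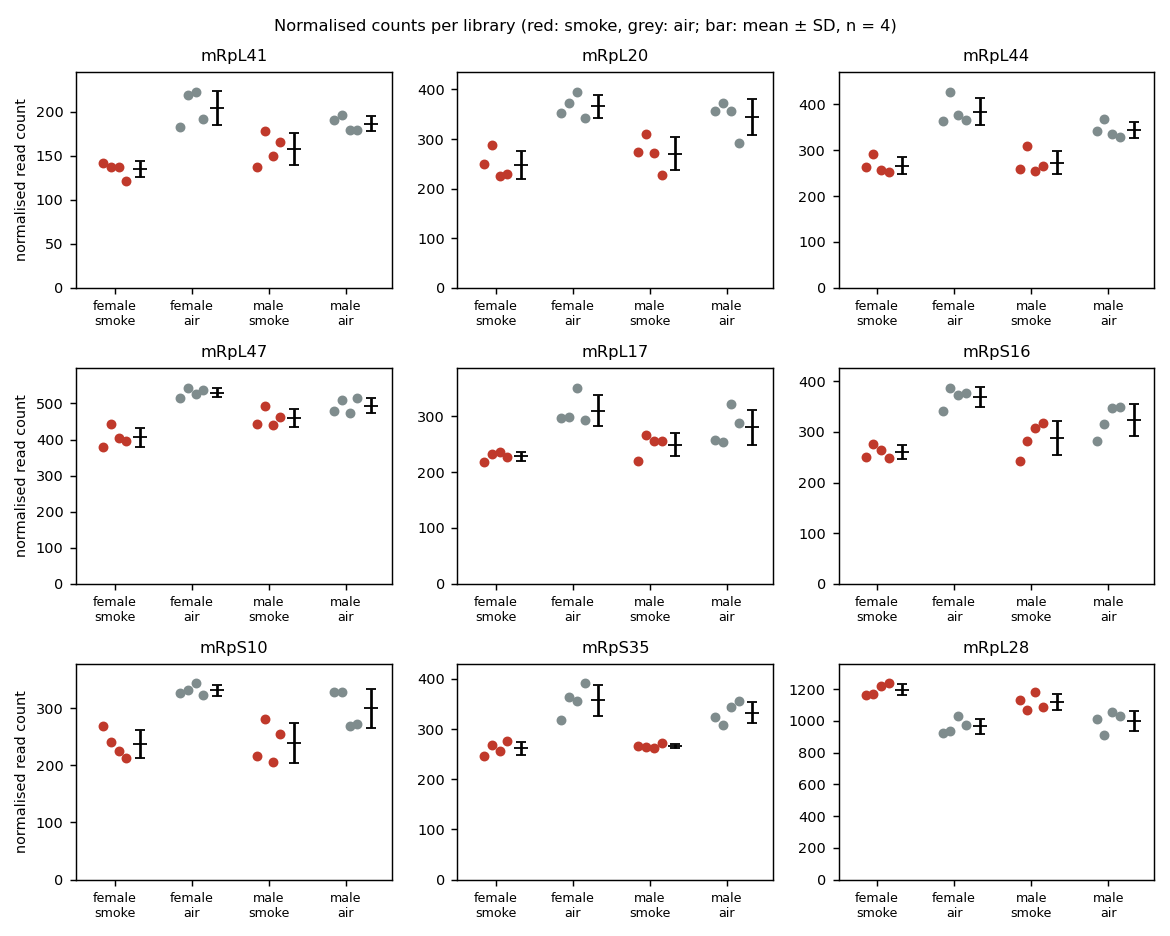
Normalised counts in every library for the 8 genes whose lower level in females passed under each setting over 8 libraries, and for mRpL28. Red points are smoke and grey points air, and the bars give the mean and SD of 4 libraries. In females the smoke points lie below the air points for the first 8 genes, and above them for mRpL28.

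In the small subunit 5 of 25 genes were lower in female smoke and 0 were higher by limma, edgeR or DESeq2, with 9 (36%) at an unadjusted p under 0.05 by limma, against 33% of all genes tested. mRpS10 and mRpS16 have bacterial relatives in the head and the body of the small subunit. mRpS16 had 251, 277, 264 and 248 counts in female smoke, against 342, 388, 373 and 377 in female air. The groups were clearly apart, and with a log2 change of -0.51 ± 0.08 it had the smallest adjusted p of the 71 genes, 0.00548. mRpS10 had 269, 240.1, 225 and 212 counts in female smoke, against 326, 331, 343 and 322 in female air, also without overlap, and a log2 change of -0.49 ± 0.09 (adjusted p = 0.0112). In males both had overlapping groups, with changes of -0.17 for mRpS16 and -0.33 for mRpS10 (adjusted p = 0.352 and 0.133).

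mRpS35, which has no bacterial relative, was lower in both sexes. In females it had 247, 269, 257 and 276 counts in smoke, against 318, 364, 355 and 391 in air. In males it had 266, 264, 263 and 272 counts in smoke, against 324, 308, 343 and 357 in air. The male smoke libraries lay close to one another, and in neither sex did smoke and air overlap. The log2 changes were -0.44 ± 0.09 in females (adjusted p = 0.0136) and -0.32 ± 0.08 in males (adjusted p = 0.0352). The male call was lost in each of the 8 fits that left out a library, with adjusted p between 0.0513 and 0.0921, with no filter (0.0618) and with the length trend removed (0.0612).

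mRpS18A and mRpS30 carry small subunit names, but their mammalian relatives sit in the large subunit. mRpS30 had 876, 933, 906 and 922 counts in female smoke, against 1072, 1110.0, 1097 and 1086 in female air. The spread within each group was narrow and the groups were far apart, with a log2 change of -0.26 ± 0.06 (adjusted p = 0.0171). mRpS18A had 188, 159, 135 and 124 counts in female smoke, against 248, 255, 204 and 203 in female air, with no overlap and a log2 change of -0.59 ± 0.16 (adjusted p = 0.0332). Counted with the large subunit, as chosen after the values were seen, they made 14 of 48 large subunit genes and 3 of 23 small subunit genes lower in female smoke. Of all genes tested in females, 7.09% were called lower.

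mRpS18C did not pass the test. Its log2 change in females, -0.62 ± 0.26, was the deepest of all 71 genes, and its adjusted p was 0.137. It passed with the replicate block (adjusted p = 0.0243), with the naming style of the columns as a term (0.0107) and with array weights (0.0132), and its adjusted p lay between 0.0574 and 0.269 under 10 other settings over the 8 libraries. It had 80.0, 103, 132 and 131 counts in female smoke, against 132, 123, 241 and 205 in female air. Both groups were spread widely, with replicates 3 and 4 above replicates 1 and 2 in smoke and, more so, in air. mRpS5, whose bacterial relative lies where the messenger RNA enters, was split the same way in the other direction. It had 821, 768, 518 and 462 counts in female smoke, against 752, 757, 526 and 514 in female air, and smoke and air did not differ beyond that spread (log2 change -0.0064 ± 0.23).

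Such a split between replicates 1 and 2 and replicates 3 and 4 was seen in other genes too. In females 4 genes had replicates 1 and 2 of both groups above all of replicates 3 and 4, against 7.95% of all genes tested, and 6 had them below, against 6.27%. In males 4 had them above, against 8.83%, and 18 had them below, against 7.05%. Among the 4 above were mRpS5 and mRpS33 in each sex. Of the 17 genes lower in female smoke, mRpS30 was among those split in males, and none was split in females.

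A few small subunit genes leaned upward without passing. mRpS11, whose bacterial relative lies on the platform of the small subunit, had 282, 311, 302 and 307 counts in male smoke, against 254, 276, 277 and 263 in male air, groups that did not overlap. Its log2 change was 0.17 ± 0.08 (adjusted p = 0.178) in males and -0.078 in females. mRpS29, a GTP-binding protein whose human relative is known as a death-associated protein, had changes of 0.10 in females and 0.13 in males, and mRpS9 of 0.086 and 0.038. When libraries were rescaled to the same total, the female changes of mRpS29 and mRpS9 became -0.014 and -0.030.

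mRpS24 had the lowest level per kilobase in each group, at 141 counts per kb in female smoke and 149 in female air, and at 139.7 in male smoke and 154 in male air. Of its exonic bases, 55.3% also belong to TBC1d7 on the opposite strand. Its log2 changes were -0.079 in females and -0.15 in males, neither of which passed. Between it and the highest gene, levels per kilobase spanned a ratio of 6.74 in female air. The median level per kilobase of the 71 genes was 341 counts in female smoke and 408 in female air, and 371 in male smoke and 388 in male air.

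For 9 of the 17 genes lower in females, leaving out 1 library could end the call. mRpL10 and mRpL21 lost their call in each of the 8 fits that left out a library, with adjusted p of 0.0507 to 0.119 and 0.0533 to 0.115. mRpL14 lost it without smoke replicates 1, 3 and 4 and air replicates 1, 2 and 3 (0.0717 to 0.117), and mRpL23 lost it without the same 6 libraries (0.0519 to 0.0919). mRpL11 lost it without smoke replicates 1, 3 and 4 and air replicates 3 and 4 (0.0540 to 0.0772), and mRpL12 without smoke replicates 1 and 2 and air replicates 3 and 4 (0.0543 to 0.0626). mRpL55 lost it without smoke replicates 1, 2 and 3 and air replicates 1, 3 and 4 (0.0522 to 0.0782). In the small subunit, mRpS18A lost it without smoke replicates 2, 3 and 4 and air replicates 1, 2 and 4 (0.0541 to 0.0881), and mRpS30 without smoke replicates 1 and 3 (0.0501 to 0.0531). The direction was the same in each of these fits. With no filter, 7 of the 17 calls were lost, those of mRpL10, mRpL11, mRpL14, mRpL21, mRpL23, mRpL55 and mRpS18A (0.0523 to 0.0926). With array weights, those of mRpL10, mRpL14 and mRpL23 were lost (0.0507 to 0.104).

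Set side by side, the large subunit genes had the lower median change. In females 12 of 46 large subunit genes and 5 of 25 small subunit genes were lower in smoke, against 7.09% of all genes tested, with median log2 changes of -0.30 and -0.20. In males 2 of 46 and 1 of 25 were lower, against 4.64% of all genes tested, with medians of -0.17 and -0.091. The difference of the medians was -0.10 in females and -0.076 in males, and it was -0.16 in females without air replicate 1 and -0.049 in males without smoke replicate 1. No test was made of it because the genes were chosen with earlier results known. Within replicates 1 and 2 of the females it was -0.046 and within replicates 3 and 4 it was -0.15. With mRpS18A and mRpS30 counted with the large subunit, the difference of the medians was -0.10 in females and -0.076 in males.

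As a share of all reads, the large subunit genes summed to 771, 792, 757 and 786 CPM in female smoke, against 956, 984, 1005 and 992 CPM in female air. The small subunit genes summed to 457, 453, 405 and 426 CPM in female smoke, against 528, 549, 510.0 and 522 CPM in female air. For both subunits every smoke library lay below every air library. By symbol, mRpS18A and mRpS30 were counted with the small subunit in these sums and in the ratio below. In males the large subunit genes summed to 791, 859.9, 833 and 848 CPM in smoke, against 924, 967, 928 and 932 CPM in air, again apart, while the small subunit genes summed to 464, 489, 453 and 461 CPM in smoke and 502, 538, 479 and 494 CPM in air, which overlapped through smoke replicate 2 and air replicate 3.

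The ratio of large to small subunit reads was 1.69, 1.75, 1.87 and 1.84 in female smoke, against 1.81, 1.79, 1.97 and 1.90 in female air. In males it was 1.70, 1.76, 1.84 and 1.84 in smoke, against 1.84, 1.80, 1.94 and 1.89 in air. Over 4 libraries the groups overlapped in both sexes, since replicates 3 and 4 had higher ratios than replicates 1 and 2. Within replicates 1 and 2, and within replicates 3 and 4, each smoke library had a lower ratio than each air library of its sex.

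**Figure D3:**
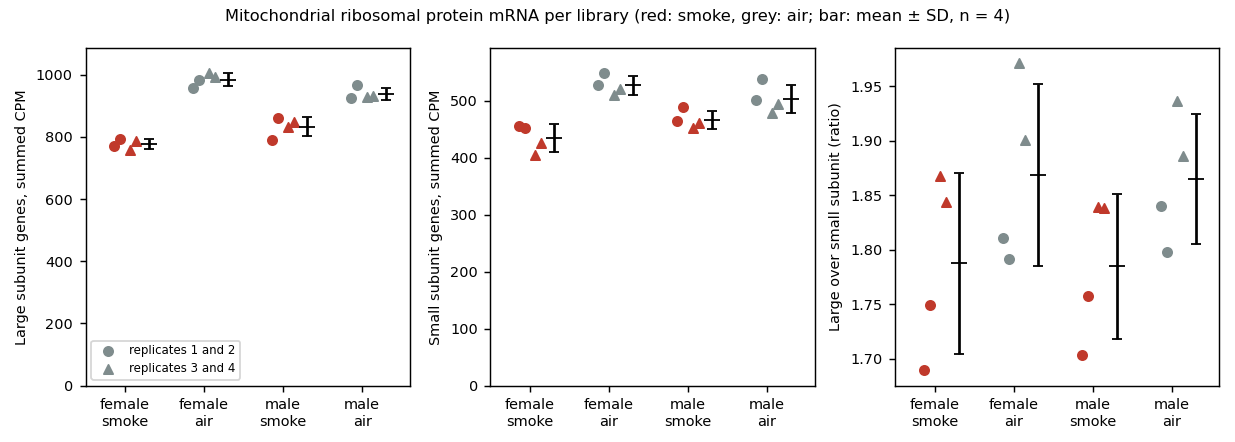
CPM of large and small subunit genes, and their ratio, in each of the 16 libraries, with the mean and SD of 4 libraries as a bar. Circles are replicates 1 and 2 and triangles replicates 3 and 4, and the axis of the ratio does not start at 0. The female smoke libraries lie at 757 to 792 CPM for the large subunit, below the female air libraries at 956 to 1005 CPM.

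The sexes were compared by a test of the difference in response itself. The female minus male difference in log2 change was called for 0 of 71 genes by limma, edgeR and DESeq2, with 8 (11.3%) at an unadjusted p under 0.05 by limma, against 14% of all genes tested, and a smallest adjusted p of 0.160. Over the 8606 genes tested in both sexes, 2.17% were called. With the replicate block the difference was called for 3 genes, mRpL47, mRpS16 and mRpS30 (adjusted p = 0.0410, 0.0322 and 0.0385), while 3.82% of all genes were called below 0 and 3.95% above. For mRpS30 it was also called with the naming style as a term (0.0477) and at the same upper quartile (0.0448). The difference was below 0 for 64 of 71 genes, against 4488 of all 8606 genes. Its median was -0.13, against -0.012 over all genes tested. The 2 smallest adjusted p belonged to mRpS30, with a difference of -0.22 ± 0.07 (adjusted p = 0.160), and mRpL47, with -0.28 ± 0.09 (adjusted p = 0.163). For 60 of the 71 genes the log2 change had the same sign in both sexes, below 0 in 55 and above 0 in 5. A call in females and none in males does not show that the sexes differed for a gene.

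Mitochondrial ribosomal protein genes are short, and short genes as a class leaned lower in smoke. The exonic length of the 71 tested genes had a median of 783 bases and ranged from 327 to 2078, against a median of 2121 over all genes tested. Over the 359 genes tested in females with more than 500 and up to 700 exonic bases, the median log2 change was -0.20, against -0.32 for the 17 genes of the set in that range. Over the 481 genes of more than 700 and up to 900 bases it was -0.16, against -0.31 for 19 genes of the set. In males the medians over all genes in the same ranges were -0.19 and -0.12, against -0.20 and -0.21 for the set. Above 1100 and up to 1500 bases the set stood higher than all genes, with a median over 13 genes of -0.035 in females, against -0.053, and of 0.038 in males, against -0.053.

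Within the set, too, the shorter genes had the lower changes. Spearman's rho between exonic length and log2 change was 0.51 in females and 0.50 in males over 71 genes, which share the same libraries, against 0.17 and 0.23 over all genes tested. For 66 nuclear genes of oxidative phosphorylation in females it was 0.57, and for 80 cytosolic ribosomal protein genes 0.59. In males rho was 0.57 for 65 oxidative phosphorylation genes and lower, at 0.36, for 80 cytosolic ribosomal protein genes. When a smooth trend with length was taken out of each library, an alternative chosen after seeing the data, the median change of the set was -0.14 in females and -0.042 in males, against -0.019 and -0.033 over all genes tested. The trend was not fully removed within the set. Spearman's rho was still 0.24 in females and 0.30 in males there, against -0.038 and 0.0077 over all genes tested. There were then 10 genes lower in female smoke, against 7.4% of all genes tested, and 1 higher, against 10%, and 1 gene, mRpL9, lower in male smoke, against 4.48%, with 0 higher, against 5.72%. The 10 were among the 17: mRpL17, mRpL20, mRpL21, mRpL41, mRpL44, mRpL47, mRpS10, mRpS16, mRpS30 and mRpS35. The part of length, or of anything that goes with it in the libraries, in the result was not tested further.

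**Figure D4:**
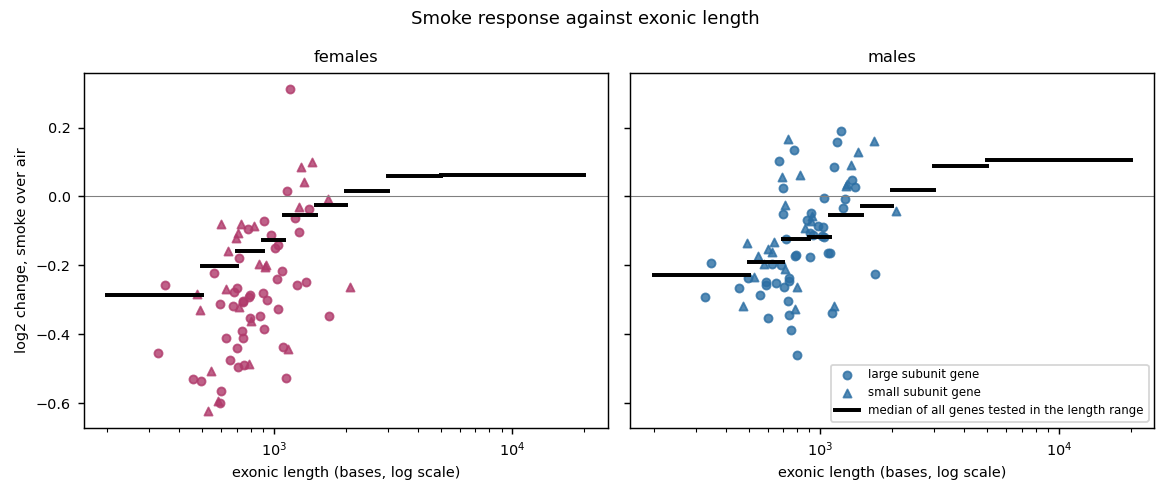
Log2 change of each tested gene, smoke over air, against its exonic length on a log scale, females on the left and males on the right. Circles are large and triangles small subunit genes, and black lines give the median of all genes tested in each range of length, which is -0.20 in females and -0.19 in males between 500 and 700 bases.

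The genes are spread over all large chromosome arms. There were 12 on 2L, 12 on 2R, 16 on 3L, 21 on 3R and 11 on the X chromosome. The 11 X-linked genes had a median log2 change of -0.26 in females and -0.087 in males, close to the -0.28 and -0.13 of the set. Of the set, 42 share some exonic bases with another gene, and 8 share 20% or more: mRpL13, mRpL17, mRpL48, mRpL53, mRpS9, mRpS14, mRpS21 and mRpS24. For these the values are uncertain in so far as reads of the neighbour were counted.

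A pair of genes encode mitochondrial ribosomal proteins under other symbols, and both had less mRNA in each smoke library than in any air library of their sex. tko, a small subunit protein of the decoding centre, averaged 253 ± 16.5 counts in female smoke and 371 ± 39.6 in female air, and 206 ± 12.9 in male smoke and 261 ± 18.1 in male air (SD, n = 4 each). Its log2 changes were -0.55 ± 0.10 in females (adjusted p = 0.00994) and -0.34 ± 0.09 in males (adjusted p = 0.0471), so it was called lower in both sexes, and with the length trend removed the male call was lost (adjusted p = 0.0600). bonsai, another small subunit protein, averaged 327 ± 11.7 counts in female smoke and 401 ± 34.6 in female air, with a change of -0.29 (adjusted p = 0.0513), and its male change was -0.20 (adjusted p = 0.101).

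Other genes that serve mitochondrial translation were described in the same way. Of 24 genes for mitochondrial translation factors and tRNA synthetases, 2 were lower in female smoke, against 7.09% of all genes tested: SerRS-m and TrpRS-m, which charge tRNAs with serine and tryptophan, with log2 changes of -0.41 and -0.42. The median of the list was -0.18 in females and -0.066 in males. In males 1, AlaRS-m, was higher (0.27), against 8.89% of all genes tested, and 0 were lower by limma, against 4.64%. With the length trend removed, the call of AlaRS-m was lost (adjusted p = 0.152). The nuclear genes of oxidative phosphorylation, whose products assemble with those made on the mitochondrial ribosome, had medians of -0.17 in females and -0.22 in males. Of these, 0 of 66 passed in females by limma, with 5 at an unadjusted p under 0.05, against 33% of all genes tested. In males 1 of 65, cype, a subunit of cytochrome c oxidase, was lower (-0.30), against 4.64% of all genes tested. By limma 11 of the 65 had an unadjusted p under 0.05 in males, against 31.5%. With the length trend removed, the medians of this list were -0.045 in females and -0.14 in males, and the call of cype was lost (adjusted p = 0.238).

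The 15 transcripts of the mitochondrial genome, which include the RNAs that the mitochondrial ribosome reads and its own ribosomal RNAs, all had a log2 change below 0 in both sexes, with medians of -0.21 in females and -0.31 in males. Of the 15, 0 passed in either sex by limma, with 1 at an unadjusted p under 0.05 in each. Of all genes tested, 33% had such a p in females and 31.5% in males. mt:srRNA, the RNA of the small subunit of the mitochondrial ribosome, had the lowest changes of the list, at -1.0 in females (adjusted p = 0.0526) and -0.92 in males (adjusted p = 0.136). With the length trend removed, the medians were -0.14 and -0.23, and the change was above 0 for mt:ATPase8 (0.49 in females and 0.13 in males) and mt:CoIII (0.027 in females). Their spread was wide: mt:CoI, a subunit of cytochrome c oxidase, had 68018 ± 22519 counts in female smoke and 75465 ± 19187 in female air (SD, n = 4 each). The cytosolic ribosomal protein genes, taken by the pattern of their symbols, had medians of 0.0022 in females and 0.065 in males. In females 1 of 80 was lower (RpS15Ab), against 7.09% of all genes tested. In males 1 of 80 was higher, against 8.89%. It was RpL24-like, which entered the list by its symbol alone. With the length trend removed, the medians of this list were 0.12 and 0.14.

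Of all genes tested, 7.09% were called lower in females and 4.64% in males. Genes for mitochondrial import, through which ribosomal proteins enter the organelle, had a median change of -0.29 in females, where 5 of 7 tested were lower in smoke. Among them were Tom40, the pore of the outer membrane, at -0.41 ± 0.06 (adjusted p = 0.00494), its receptor Tom70 at -0.42, and the carrier chaperone Tim9a at -0.43. In males 1 of the 7, Tom7, was lower (-0.24). With the length trend removed, 2 of 7 passed in females, Tom40 and Tom70, the female median was -0.17, and 0 of 7 passed in males by limma. Of 12 genes for mitochondrial transcription and RNA handling, TFAM, which packages mitochondrial DNA, was lower in female smoke (-0.42 ± 0.08, adjusted p = 0.00904).

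In the same list 3 genes were higher in both sexes, against 10.9% of all genes tested in females and 8.89% in males. mtRNApol, the RNA polymerase of mitochondria, averaged 777 ± 43.6 counts in female smoke and 518 ± 39.6 in female air, and 879 ± 127 in male smoke and 513 ± 48.4 in male air (SD, n = 4 each). Its log2 changes were 0.58 ± 0.08 (adjusted p = 0.00316) and 0.77 ± 0.12 (adjusted p = 0.00629). mtDNA-helicase, which unwinds mitochondrial DNA, had changes of 0.56 in females and 0.80 in males, and tam, the catalytic subunit of the mitochondrial DNA polymerase, 0.38 and 0.58. The female call of tam was lost with the length trend removed (adjusted p = 0.0690).

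Of 7 tested genes of mitochondrial stress, 2 were higher in female smoke and 3 in male smoke. Of 11 regulators of ribosome and mitochondrial biogenesis, 2 were higher in females and 1 in males. Over all genes tested, 10.9% were called higher in females and 8.89% in males. Hsc70-5, the main chaperone of the mitochondrial matrix, had log2 changes of 0.47 in females and 0.62 in males, and Hsp60A, its partner in folding, passed in males (0.26) and did not with the length trend removed (adjusted p = 0.0717). Thor, which holds back cap-dependent translation in the cytosol, had changes of 2.40 ± 0.21 in females (adjusted p = 0.000466) and 2.52 ± 0.35 in males (adjusted p = 0.00393). ImpL2, a secreted antagonist of insulin-like peptides, had changes of 2.96 and 1.67, and REPTOR, a transcription factor active when TOR is low, of 0.78 in females. In the stress list 5 of 7 genes did not pass in females and 4 of 7 in males, and of the regulators 9 of 11 did not pass in females and 10 of 11 in males.

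**Figure D5:**
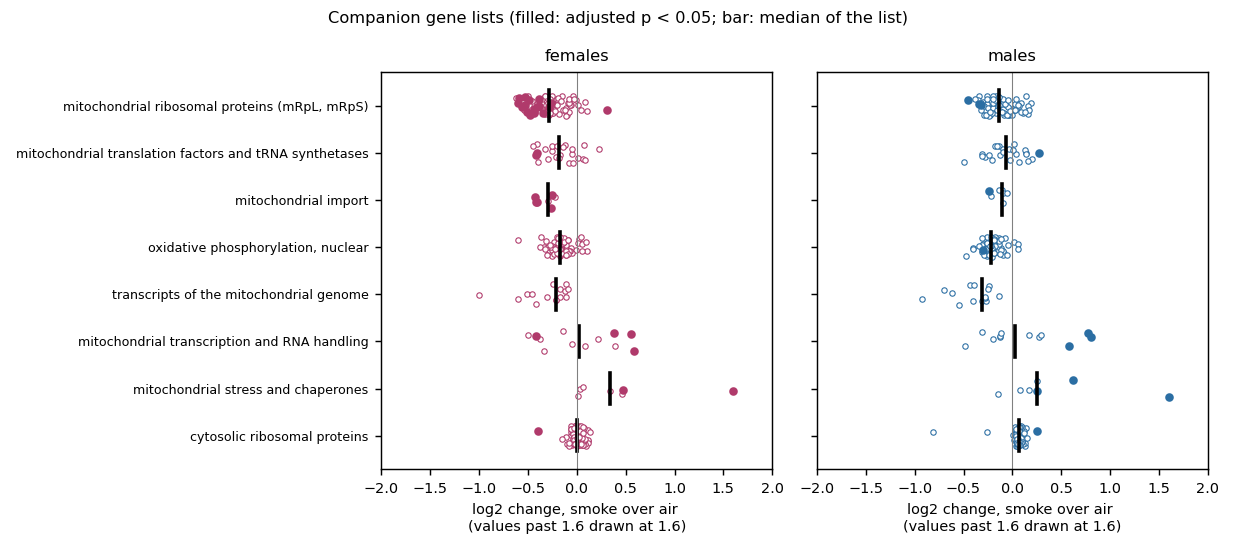
Log2 change, smoke over air, of the mitochondrial ribosomal protein genes and of 7 other lists, females on the left and males on the right. Each point is a gene, filled where the adjusted p was under 0.05, black bars are the medians of the lists, and changes past 1.6 are drawn at 1.6. The bar of the mitochondrial ribosomal protein genes lies at -0.28 in females and -0.13 in males.

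Some lists of markers of other cells held genes called between smoke and air in the same libraries, and other lists held none. Of all genes tested, 7.09% were called lower and 10.9% higher in females, and 4.64% and 8.89% in males. Genes of dividing cells summed to 699 ± 89.8 CPM in female smoke (591 to 811) and 1152 ± 172 CPM in female air (976 to 1389), and 11 of 17 were lower in smoke. In males they summed to 772 ± 103 CPM in smoke and 867 ± 144 CPM in air, groups that overlapped, and 1 of 17 was lower. Salivary gland genes summed to 3.49 to 12.4 CPM in female smoke and 61.8 to 325 CPM in female air, with 7 of 8 lower, and 4 of 14 imaginal disc genes were lower in female smoke. In male smoke 1 of 14 imaginal disc genes was higher and 0 lower by limma, with a median log2 change of -0.85. Of these 14, 8 had an unadjusted p under 0.05 by limma in females, against 33% of all genes tested, and 4 in males, against 31.5%. In males the salivary gland genes summed to 4.03 to 35.9 CPM in smoke and 11.8 to 7668 CPM in air, with a median log2 change of -2.93 and 0 of 6 called by limma, 0 of them at an unadjusted p under 0.05, and ng1 at 0 in smoke. Midgut genes had median log2 changes of -3.61 in females and -1.49 in males, with 0 of 6 and 0 of 5 called by limma and 0 at an unadjusted p under 0.05, and Mal-B1 was at 0 in male smoke. They summed to 16.1 ± 26.2 CPM in female smoke and 224 ± 325 CPM in female air. In males the sum was higher in smoke, at 33.3 ± 60.0 CPM, than in air, at 23.5 ± 7.46 CPM (SD, n = 4 each), and the groups overlapped in both sexes.

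Muscle genes, of a tissue rich in mitochondria, summed to 2405 to 6812 CPM in female smoke and 2170 to 13578 CPM in female air, with 0 of 16 called by limma and 1 at an unadjusted p under 0.05, and to 1511 to 4394 CPM in male smoke and 4104 to 13313 CPM in male air, with 7 of 16 lower. In males 14 of these 16 had an unadjusted p under 0.05 by limma, against 31.5% of all genes tested. The flight muscle gene fln was at 0 in both female groups and in male smoke. Hemocyte genes, of the blood cells, summed to 353 to 773 CPM in male smoke and 886 to 1658 CPM in male air, groups that did not overlap, with a median log2 change of -0.88 and 1 of 12 lower. Of these 12, 8 had an unadjusted p under 0.05 by limma in males, against 31.5% of all genes tested, and 2 in females, against 33%. In females the hemocyte genes summed to 950 to 1487 CPM in smoke and 586 to 1731 CPM in air, with 1 of 12 higher. Fat body genes summed to 246 to 1908 CPM in male smoke and 1163 to 37425 CPM in male air, with a median log2 change of -3.02 and 0 of 8 called by limma, all 8 of them at an unadjusted p under 0.05. In females the fat body median was -0.51, with 0 of 8 called and 0 at an unadjusted p under 0.05. Of the tracheal markers, 3 of 15 were higher in female smoke and 2 of 15 in male smoke. The shares of all genes tested were 10.9% and 8.89%. The part of these markers in the lower level of mitochondrial ribosomal protein genes was not tested.

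In the authors' deposited table of their own comparison, 24 of the 72 genes were lower in female smoke at an FDR under 0.05, against 9.64% of the genes with an FDR, and mRpL28 was the 1 that was higher, against 11.6%. In males the authors' deposited table had 3 lower, mRpL9, mRpL44 and mRpS35, against 9.47% of the genes with an FDR, and 0 higher, against 10.1%.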

How the data were processed

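The 16 libraries were grouped by their labels. Per the labels' protocols, the NucleoSpin RNA kit and the NEBNext Ultra RNA kit gave libraries read from 1 end for 75 bp. Per the submitters' processing notes, STAR 2.6.0c and DESeq2 1.22.2 were used, in steps those notes do not name. A human build is the one build they list, so coordinates are left out. No source here states the counting tool, the annotation or whether strand was used. The authors deposited 1 table per sex of normalised gene signal, which is, judged from the values, a read count divided by a size factor (0.750 to 1.30). They also deposited 1 table per sex with log2 fold changes, a score (their test statistic) and p-values, with column names as DESeq2 writes them, per the file headers. Whole reads were recovered from the signal with 100% of values within 0.01 of a whole read. Each sex was normalised by itself, so smoke and air were compared within a sex only.

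Genes were kept with a value of 10 or more in 4 or more of a sex's 8 libraries. The test was limma 3.58.1 in R 4.3.3 with a mean-variance trend on log2(value + 1), two-sided, with Benjamini-Hochberg adjustment over all genes tested and a threshold of 0.05. This log2 scale understates changes of genes with low values. The difference between the sexes came from 1 fit to all 16 libraries, female minus male. Medians over lists are descriptions, with no test. Exonic lengths, chromosome arms and shared exons came from the reference annotation, matched for all 72 genes, 1 of them by symbol alone. CPM are recovered reads per 1000000 reads.

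The genes, the lists and the tests were chosen with earlier results of these data known. Named genes were those called in a sex, the 3 highest and 3 lowest per kilobase, the 3 largest rises and falls per sex, the 4 widest sex differences, genes not kept by the filter, and up to 4 called genes per companion list, with tko and bonsai. The RNAs roX1 and roX2 checked the sex labels. Over the 24 pairs of libraries within a group, the differences in counts exceeded sampling noise (chi-square of 23.8 to 318 per degree of freedom).

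The alternatives comprised pseudocounts 0.5 and 5, dropping the filter or raising it to 50, 3 other scalings (same upper quartile, same total, TMM factors), edgeR 4.0.16 and DESeq2 1.42.0 on the recovered reads, array weights, the replicate number or the naming style of the columns as a term, each pair of replicates alone, and each library left out. A fit with the trend with exonic length removed, and the count of mRpS18A and mRpS30 with the large subunit, were added after seeing the data. The tests were tried on simulated counts with known changes. These counts had independent libraries, no split between replicates and no trend with real exonic length. The trial therefore cannot show how the tests behave under those features of the real libraries.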

Additional observations from a re-analysis of the deposited data

Results flagged for a closer look

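In groups of 4 libraries, a library was set apart where its gap to the nearest other, divided by the range of the group, exceeded Dixon's critical value for 4 samples. Over 31 named genes and 124 groups, 7 libraries were set apart, and chance gives about 1 in 20 groups. mRpL14 had 396 normalised counts in female smoke replicate 2, against 285 to 299 in the other 3 libraries. mRpS29 had 753 in female smoke replicate 4, against 635 to 651. mRpL17 and mRpL21 had 352 and 353 in female air replicate 3, against 294 to 298 and 309.7 to 316. mRpL9 had 418 in female air replicate 1, against 483 to 491. In males, mRpL35 had 110.1 in smoke replicate 4, against 157 to 162, and mRpL55 had 149.5 in air replicate 4, against 171 to 175.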

How the results depend on the processing

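The number of genes lower in female smoke was 17 as reported. It was 10 with no filter, 34 with libraries at the same total, 26 by DESeq2, 32 with array weights, 35 with the naming style as a term, 10 with the length trend removed, and 0 within replicates 1 and 2 or within replicates 3 and 4. The shares of all genes called lower were 3.63%, 11.7%, 11.2%, 15.2%, 12.6%, 7.4%, 0% and 2.61% in the same order. It stayed within 1.5 times of 17 under both pseudocounts, the filter of 50, the same upper quartile, TMM factors and edgeR, and ranged from 9 to 15 with 1 library left out. The 1 gene higher in females became 0 at the same total and within either pair of replicates, and stayed at 1 with each library left out. The male count of 3 became 1 with no filter, 5 with the naming style as a term, 1 with the length trend removed and 0 within either pair, and ranged from 0 to 2 with 1 library left out. The shares of all genes called lower in males were 3.44%, 8.33%, 4.48%, 0.678% and 0.0574% in the same order. The female minus male count of 0 became 1 at the same upper quartile and 1 with the naming style as a term, and the large minus small median in females of -0.10 became -0.14 with array weights, -0.046 within replicates 1 and 2 and -0.15 within replicates 3 and 4. With 1 library left out it ranged from -0.16 to -0.10, and in males from -0.10 to -0.049. The ratio of the highest to the lowest gene in female air was 12.2 in counts and 6.74 per kilobase. At the same total, the female changes of mRpS29 and mRpS9 were reversed, at -0.014 and -0.030. Same-total scaling moved the median of all genes by -0.11 in females, and no filter moved it by -0.11 in males. In females 629 genes were called lower and 970 higher, against 821 and 834 at the same upper quartile and 1042 and 644 at the same total. The cause of these changes was not tested.

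Deviations of libraries with the same replicate number correlated at -0.098 to 0.42 in females and 0.038 to 0.46 in males. The correlation was above 0.1 in 3 of 4 pairs of each sex, and 3 of 4 smoke libraries per sex correlated best with their own number. No source here states a pairing, and the main fits had no term for the replicate number. The main counts of 17, 3 and 0 therefore leave this structure out. With the replicate block, 33 genes were lower in female smoke (12.7% of all genes tested), 8 were lower (13.2% of all genes) and 1 higher (19.2%) in male smoke, and 3 had a difference between the sexes (3.82% of all genes below 0 and 3.95% above).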
